A study of Homo sapiens with 11 samples.

Results

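Expression of 9 genes that make, clear or sense prostaglandins was described across the 4 groups of an siRNA and EGF experiment. They are PTGS1, PTGS2, PTGES, PTGES2, PTGES3, HPGD, SLCO2A1, PTGER2 and PTGER4. They were matched by symbol in a table of 40460 genes, and each had a row. They were chosen by their pathway, with the differences between these groups already known from the same values. Those differences are therefore given as a description, and a p-value places a gene among all genes tested without being independent support. The cells were hTert-HME1, human mammary epithelial cells made immortal with the telomerase gene, at passage 6. Control siRNA (control-2) was given to 3 cultures with EGF in the medium and 2 without. BRCA2 siRNA (BRCA2-1) was given to 3 cultures with EGF and 3 without. Replicates are lettered A, B and C, and control siRNA without EGF has A and C. Each siRNA was a single sequence used in a single line, so effects on other transcripts cannot be told apart from effects on its named target. BRCA2 itself did not fall with its siRNA: it differed by 0.05 ± 0.12 with EGF (limma adjusted p = 0.999) and was higher by 0.74 ± 0.13 without EGF (0.00397). EGF withdrawal changed BRCA2 by -0.81 ± 0.13 under control siRNA (0.000444) and by -0.12 ± 0.12 under BRCA2 siRNA (0.468). The difference without EGF thus shares control libraries in which BRCA2 was lower. The libraries given BRCA2 siRNA are therefore called the labelled libraries.

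Prostaglandins are lipid signals made from arachidonic acid. A cyclooxygenase, either the constitutive enzyme of PTGS1 or the inducible one of PTGS2, makes prostaglandin H, which terminal synthases such as that of PTGES turn into prostaglandin E. The carrier SLCO2A1 and the dehydrogenase HPGD remove it, and the receptors of PTGER2 and PTGER4 pass its signal on through cyclic AMP.

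The values are the authors' deposited log2 expression levels, and library depth is unknown. Here ± is the moderated standard error from limma, and a gene passed the test at an adjusted p under 0.05 over the 17945 genes above a filter on low values. Probabilities given alone in parentheses, or after a log2 difference, are limma's adjusted p. The labels call the replicates biological, but how the cultures were separated is not stated. In bulk RNA, fewer cells expressing a gene and less RNA per cell cannot be told apart. Basal mammary markers stood high in each library: KRT5 lay between 17.21 and 18.78 and TP63 between 13.01 and 14.04. Of 8 luminal markers 5 were above the filter, among them the keratin genes KRT8 (between 10.51 and 11.41) and KRT18 (between 10.94 and 11.98), while the adhesion gene EPCAM lay between 0.15 and 0.67. The leukocyte gene PTPRC lay between 2.33 and 3.10 and the endothelial cadherin gene CDH5 between -0.30 and -0.01, both under the filter. Other markers of such cells passed it: 2 of 7 for leukocytes, among them CSF1R (between 3.54 and 4.38), and 3 of 7 for endothelial cells, among them KDR (between 7.31 and 10.40). Of 8 fibroblast markers 7 passed it, among them COL1A1 (between 7.63 and 10.88), while COL1A2 lay between 1.31 and 1.84.

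Per kilobase of exon, PTGS2 and PTGES3 were the most abundant of the 9 and SLCO2A1 the least. In control libraries with EGF the log2 level per kilobase was 10.85 to 12.73 for PTGS2 and 11.43 to 11.84 for PTGES3, which overlap. PTGES2 followed at 8.84 to 9.13 and PTGER4 at 7.48 to 7.88, neither overlapping its neighbours in this order. PTGS1 (4.29 to 4.55), HPGD (3.23 to 4.44) and PTGER2 (3.59 to 4.27) came next; HPGD overlapped both, and PTGS1 did not overlap PTGER2. The levels of PTGES (1.28 to 1.38) and SLCO2A1 (-0.68 to -0.20) were lowest, with 3.64% and 0.151% of genes tested below them. Low genes in this table sit near a floor, so their differences may be compressed. In control libraries without EGF the HPGD level per kilobase was 6.07 to 6.21, above PTGS1 (5.16 to 5.32) and PTGER2 (5.19 to 5.56).

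**Figure D1:**
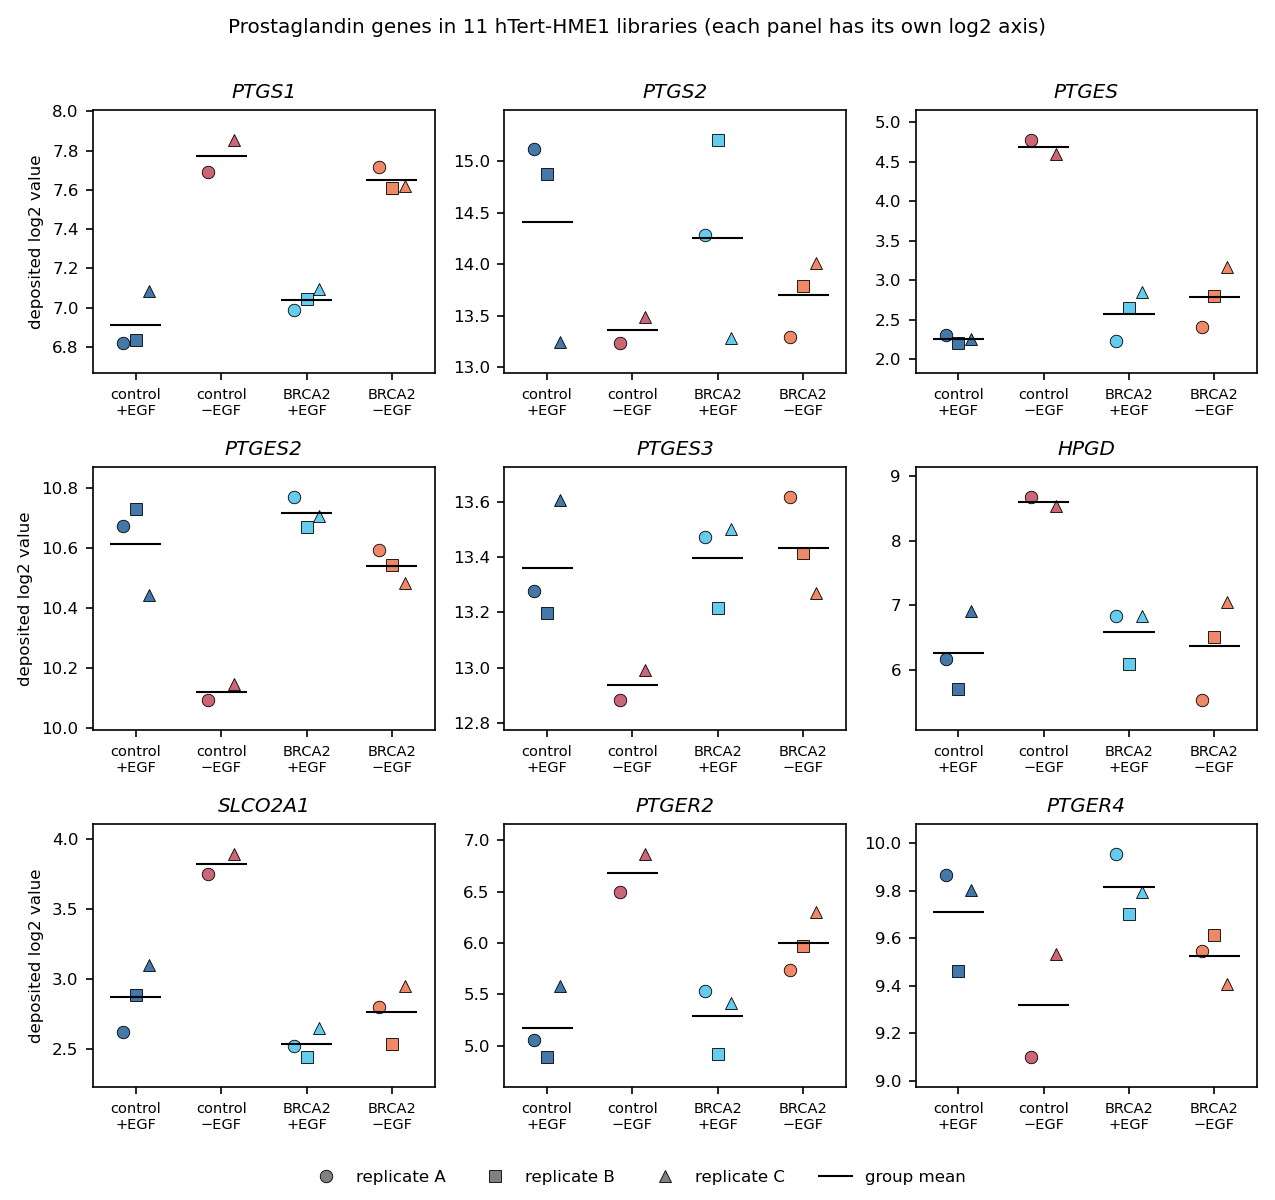
Deposited log2 value of the 9 genes in each library of the 4 groups, with symbols for replicates. HPGD (8.67 and 8.53) and PTGES (4.769 and 4.597) stood highest in the control libraries without EGF.

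The stretches before the start sites of 5 genes are shown because PTGS1, PTGES, HPGD and PTGER2 were higher together in control libraries without EGF while PTGS2 was not. Each is the 250 bases before the start in RefSeq (GRCh38.p14; both listed starts of PTGS1 and the first of HPGD), 5′ to 3′ on the gene's strand. Capitals mark matches on either strand to the TATA box TATAAA, the CRE core TGACG, the GC box GGGCGG, the C/EBP motif TTNNGNAA, the ETS motif CCGGAAG and the NF-kB consensus.
PTGS2 (chr1:186680424-186680673, minus strand): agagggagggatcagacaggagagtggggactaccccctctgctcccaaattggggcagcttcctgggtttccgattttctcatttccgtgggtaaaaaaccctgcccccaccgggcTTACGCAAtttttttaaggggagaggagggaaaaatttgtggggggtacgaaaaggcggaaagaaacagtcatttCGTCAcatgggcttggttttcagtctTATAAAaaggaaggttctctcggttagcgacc
PTGS1, first start (chr9:122370283-122370532, plus strand): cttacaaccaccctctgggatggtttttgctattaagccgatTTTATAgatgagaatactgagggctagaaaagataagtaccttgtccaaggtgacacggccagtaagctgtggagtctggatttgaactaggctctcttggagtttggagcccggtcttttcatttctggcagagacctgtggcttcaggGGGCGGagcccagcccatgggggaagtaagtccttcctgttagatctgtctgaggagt
PTGS1, other start (chr9:122375052-122375301, plus strand): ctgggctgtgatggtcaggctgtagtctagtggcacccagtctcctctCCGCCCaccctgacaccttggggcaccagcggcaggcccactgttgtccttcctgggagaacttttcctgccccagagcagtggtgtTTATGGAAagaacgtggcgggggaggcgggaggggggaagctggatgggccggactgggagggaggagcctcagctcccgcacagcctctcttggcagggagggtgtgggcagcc
PTGES (chr9:129753043-129753292, minus strand): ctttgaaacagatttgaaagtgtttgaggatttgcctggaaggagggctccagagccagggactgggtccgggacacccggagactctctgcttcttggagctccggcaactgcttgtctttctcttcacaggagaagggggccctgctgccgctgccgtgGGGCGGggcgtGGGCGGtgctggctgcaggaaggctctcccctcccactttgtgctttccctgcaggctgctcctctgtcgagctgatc
HPGD (chr4:174522489-174522738, minus strand): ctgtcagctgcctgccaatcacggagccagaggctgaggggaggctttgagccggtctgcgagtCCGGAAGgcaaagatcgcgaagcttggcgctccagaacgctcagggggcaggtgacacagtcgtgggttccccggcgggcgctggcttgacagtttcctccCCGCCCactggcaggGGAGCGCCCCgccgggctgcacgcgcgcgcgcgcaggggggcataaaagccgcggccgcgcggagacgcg
PTGER2 (chr14:52314062-52314311, plus strand): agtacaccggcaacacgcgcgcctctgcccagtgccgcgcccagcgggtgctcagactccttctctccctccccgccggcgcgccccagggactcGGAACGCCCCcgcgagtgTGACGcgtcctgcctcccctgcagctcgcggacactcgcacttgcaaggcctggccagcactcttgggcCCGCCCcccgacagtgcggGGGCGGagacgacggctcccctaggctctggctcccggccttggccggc

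The PTGS2 window holds TATAAA at -32 to -27 from the start, the CRE core at -58 to -54 and the C/EBP motif at -133 to -126. TATAAA is in 10.7% of all 35116 windows of this length, the CRE core in 21.2% and the C/EBP motif in 33.2%. The other 5 windows hold the GC box, which 42.6% of windows have. Windows not shown of PTGES2, PTGES3 and PTGER4, which did not rise under control siRNA, hold it too. The GC box therefore does not set apart the genes that rose. The window of the second HPGD start, not shown, lacks the GC box and has the CRE core at -77 to -73. TATAAA was also found before the first PTGS1 start, at -208 to -203, but on the opposite strand (TTTATA). Only the PTGS2 window has it on the gene's own strand. The C/EBP motif was found before the other PTGS1 start, at -115 to -108. Presence on either strand therefore separates PTGS2 from the genes that rose for neither motif, while TATAAA differs in strand and position. PTGER2 also has the CRE core at -137 to -133, and HPGD the ETS motif at -186 to -180 (8.52% of windows). HPGD and PTGER2 both match the NF-kB consensus (9.96% of windows), as do PTGES3 and PTGER4 in windows not shown. The PTGES3 window also has the CRE core, at -21 to -17. The full CRE TGACGTCA, which contains the core (1.65%), the AP-1 motif TGANTCA (6.57%) and the E-box CACGTG (6.34%) were not found in these 6 windows. These are matches of letters only. Of the 9 genes 8 had a window, and SLCO2A1 is named only.

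The first comparison removed EGF from cells with control siRNA. PTGS1, PTGES, HPGD, SLCO2A1 and PTGER2 rose, PTGES2 and PTGES3 fell, and PTGS2 and PTGER4 did not pass the test. The largest rises were in PTGES (5.38-fold) and HPGD (5.09-fold). Of the 9 genes 7 passed, where 50.8% of all genes tested passed: 5 rose, against 24.7%, and 2 fell, against 26.1%. An unadjusted p under 0.05 was found for 8 of 9, against 57.1%, and the groups did not overlap for 7 of 9, against 66.5%. PTGES and SLCO2A1 passed the filter only through the group where they were high, so these counts support nothing about the set.

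PTGS1, the constitutive cyclooxygenase gene, was 6.82, 6.83 and 7.08 in control libraries A, B and C with EGF and 7.69 and 7.85 in A and C without EGF. Among labelled libraries it was 6.99, 7.04 and 7.09 with EGF and 7.72, 7.61 and 7.62 without. Under either siRNA the libraries without EGF stood above those with EGF. It rose by 0.86 ± 0.13 under control siRNA (1.81-fold, limma adjusted p = 0.000274) and by 0.61 ± 0.11 in the labelled libraries (1.52-fold, 0.00416). The interaction, the labelled effect minus the control effect, was -0.25 (95% interval -0.63 to 0.12, adjusted p = 0.423). With only replicates B and C the labelled rise did not pass (0.55, 0.169).

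PTGS2, the inducible cyclooxygenase gene, spread widely within groups. With EGF it was 15.12, 14.88 and 13.24 in control libraries A, B and C and 14.29, 15.20 and 13.28 in the labelled ones. Without EGF it was 13.24 and 13.49 in control libraries A and C and 13.29, 13.79 and 14.01 in labelled libraries A, B and C. Both C libraries with EGF were as low as libraries without EGF, and the groups overlapped in each comparison.

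The PTGS2 withdrawal difference was -1.05 ± 0.56 under control siRNA (95% interval -2.29 to 0.19, adjusted p = 0.141) and -0.56 ± 0.51 in the labelled libraries (-1.67 to 0.55, 0.428). Within replicate A it was -1.88 under control siRNA and -0.995 in the labelled libraries, and within labelled replicate B -1.41. Within replicate C the sign was opposite, at 0.24 and 0.73. Without control replicate C with EGF, PTGS2 fell under control siRNA (-1.64, 0.00995).

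With EGF, PTGS2 was 1.64 higher in B than in C among control libraries, a wider gap than in 99.3% of genes tested. Among labelled libraries the gap was 1.92, wider than in 99.8%. For HPGD the B minus C difference was -1.22 (wider than in 97.8%) and -0.74 (92.2%), the opposite direction. PACERR, an antisense RNA beside PTGS2, lay between 4.03 and 5.14, far under PTGS2; whether counting used strand is not stated.

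By Pearson correlation over the 11 libraries the genes most like PTGS2 were TNFAIP3 (0.992), JAG1 (0.982) and HBEGF (0.981). TNFAIP3 encodes an inhibitor of NF-kB signalling, JAG1 a Notch ligand and HBEGF a ligand of the EGF receptor. The libraries share groups and replicate letters, so these values are descriptions. HBEGF had group means of 10.46 with EGF and 8.31 without under control siRNA, and 10.12 and 9.13 in the labelled libraries.

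**Figure D2:**
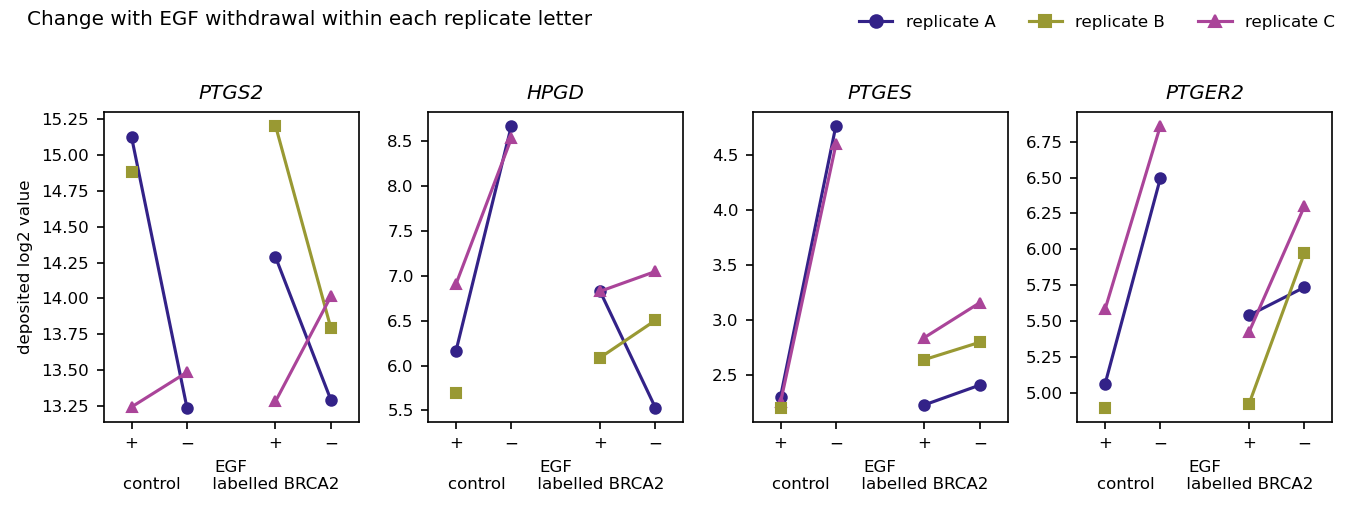
Deposited log2 value with (+) and without (−) EGF for PTGS2, HPGD, PTGES and PTGER2, with lines joining libraries of a replicate letter (control replicate B has none without EGF). The PTGS2 lines of replicate C run upward (0.24 and 0.73) while those of A and B run downward.

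PTGES encodes the inducible prostaglandin E synthase. It was 2.31, 2.21 and 2.26 in control libraries A, B and C with EGF and 4.769 and 4.597 in A and C without. Among labelled libraries it was 2.23, 2.64 and 2.84 with EGF and 2.41, 2.80 and 3.16 without. The control libraries without EGF stood above all 9 others. It rose by 2.43 ± 0.23 under control siRNA (adjusted p = 2.30e-05). The labelled difference was 0.22 ± 0.21 (95% interval -0.24 to 0.67, 0.451).

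The interaction for PTGES was -2.21 ± 0.31 (adjusted p = 0.0167). This test passed for PTGES and HPGD, 2 of 9, both lower, where 3.32% of all genes passed and 1.93% were lower. An unadjusted p under 0.05 was found for 6 of 9, against 22.2%. PTGES and SLCO2A1 passed the filter only through the control libraries without EGF, which enter this test. These counts therefore support nothing about the set. The PTGES interaction did not pass without control replicate A with EGF (0.0595), labelled replicate B without EGF (0.0534) or labelled replicate C with EGF (0.055). With no filter it passed without control replicate A without EGF (0.0255) and not without C (0.118), while the control rise passed without either (0.000425 and 0.00039).

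PTGES2, a membrane-associated synthase gene, was 10.67, 10.73 and 10.45 in control libraries A, B and C with EGF and 10.10 and 10.15 in A and C without, with no overlap. It fell under control siRNA (-0.49 ± 0.10, adjusted p = 0.0015) but not with only replicates B and C (0.139). Its labelled values were 10.67 to 10.77 with EGF and 10.48 to 10.59 without (-0.18 ± 0.09, 0.145). The interaction was 0.32 (0.179) and passed without control replicate C with EGF (0.40, 0.0419).

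PTGES3 encodes p23, a co-chaperone of HSP90 with synthase activity. It was 13.28, 13.20 and 13.60 in control libraries A, B and C with EGF and 12.89 and 12.99 in A and C without, with no overlap. It fell under control siRNA (-0.42 ± 0.14, adjusted p = 0.0264). That call ended under quantile normalization (-0.16, 0.426), with only replicates B and C (0.25), without control replicate A or C without EGF (0.15 and 0.0706) and without control replicate C with EGF (0.06). The labelled values were 13.21 to 13.50 with EGF and 13.27 to 13.62 without (0.04 ± 0.13, 0.844), and the interaction was 0.46 (0.184). The 4 PTGES3 pseudogenes in the table reached at most 2.30; how reads shared with them were counted is not stated.

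HPGD encodes the dehydrogenase that starts the inactivation of prostaglandin E. It was 6.17, 5.70 and 6.91 in control libraries A, B and C with EGF and 8.67 and 8.53 in A and C without. Among labelled libraries it was 6.83, 6.09 and 6.83 with EGF and 5.53, 6.50 and 7.05 without. The control libraries without EGF stood above all 9 others, and the labelled groups overlapped. HPGD rose by 2.35 ± 0.43 under control siRNA (adjusted p = 0.00104), by 2.51 within A and 1.62 within C. With only B and C it did not pass (2.23, 0.0539). The labelled difference was -0.22 ± 0.38 (95% interval -1.06 to 0.62, 0.691), with -1.30, 0.42 and 0.22 within A, B and C.

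The HPGD interaction was -2.57 ± 0.58 (adjusted p = 0.0395) and this call was fragile. Leaving out 1 library in turn gave estimates from -2.91 to -2.15. The call held without labelled replicate B with EGF (0.0418), control replicate C with EGF (0.016) or labelled replicate C without EGF (0.0183). It ended without control replicate A or B with EGF (0.109 and 0.0549) and control replicate A or C without EGF (0.175 and 0.152). It also ended without labelled replicate A or C with EGF (0.08 and 0.0901) and labelled replicate A or B without EGF (0.0799 and 0.0882). Without the mean-variance trend it was 0.0566.

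By the same correlation the genes most like HPGD were BCHE, a cholinesterase gene (0.983), the tetraspanin gene CD9 (0.981) and the calcium channel subunit gene CACNA2D3 (0.975). BCHE had group means of 6.89 with EGF and 8.46 without under control siRNA, and 7.02 and 6.98 in the labelled libraries. Within the 9 genes HPGD had correlations of 0.89 with PTGES, 0.82 with SLCO2A1 and 0.81 with PTGER2 over the same 11 libraries. It had -0.85 with PTGES2, -0.63 with PTGES3, 0.53 with PTGS1, -0.50 with PTGS2 and -0.43 with PTGER4. The libraries share groups, so these values too are descriptions.

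SLCO2A1 encodes the carrier that takes prostaglandins into cells. It was 2.62, 2.89 and 3.10 in control libraries A, B and C with EGF and 3.75 and 3.89 in A and C without. Among labelled libraries it was 2.52, 2.45 and 2.65 with EGF and 2.80, 2.54 and 2.95 without. The control libraries without EGF stood above all 9 others. It rose by 0.95 ± 0.18 under control siRNA (adjusted p = 0.00152), also with no filter and either of those libraries left out (0.00924 and 0.0191). The labelled difference was 0.22 ± 0.17 (95% interval -0.14 to 0.59, 0.326), and the interaction did not pass (-0.73, 0.12). Its nearest genes by Pearson correlation were VWA7 (0.978), PYROXD2 (0.976) and the chemokine gene CXCL16 (0.973).

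PTGER2 and PTGER4 encode prostaglandin E receptors that raise cyclic AMP. PTGER2 was 5.06, 4.90 and 5.58 in control libraries A, B and C with EGF and 6.50 and 6.86 in A and C without. Among labelled libraries it was 5.54, 4.92 and 5.42 with EGF and 5.73, 5.97 and 6.30 without. Under either siRNA the libraries without EGF stood above those with EGF. It rose by 1.501 ± 0.26 under control siRNA (2.83-fold, adjusted p = 0.000721) and by 0.71 ± 0.23 in the labelled libraries (1.63-fold, 0.0425). The interaction did not pass (-0.79, 95% interval -1.56 to -0.03, 0.21).

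The labelled PTGER2 call ended without labelled replicate A, B or C with EGF (adjusted p = 0.0617, 0.131 and 0.0543) and without B or C without EGF (0.0949 and 0.151), and held without A without EGF (0.043). It also ended with no filter (0.0623), under quantile normalization (0.117), with a term for replicate A (0.0589) and with only B and C (0.172).

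PTGER4 was 9.87, 9.46 and 9.81 in control libraries A, B and C with EGF and 9.10 and 9.54 in A and C without, and these overlapped. The difference was -0.39 ± 0.16 (95% interval -0.73 to -0.05, adjusted p = 0.0534). It passed without control replicate B with EGF (-0.52, 0.0155) and without control replicate C without EGF (-0.61, 0.0226). Labelled values were 9.70 to 9.95 with EGF and 9.41 to 9.62 without (-0.29 ± 0.14, 0.134). PTGER4 minus PTGER2 in a library was 4.22 to 4.81 in control libraries with EGF and 2.61 to 2.67 without, and 4.37 to 4.78 and 3.11 to 3.81 in the labelled libraries.

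**Figure D3:**
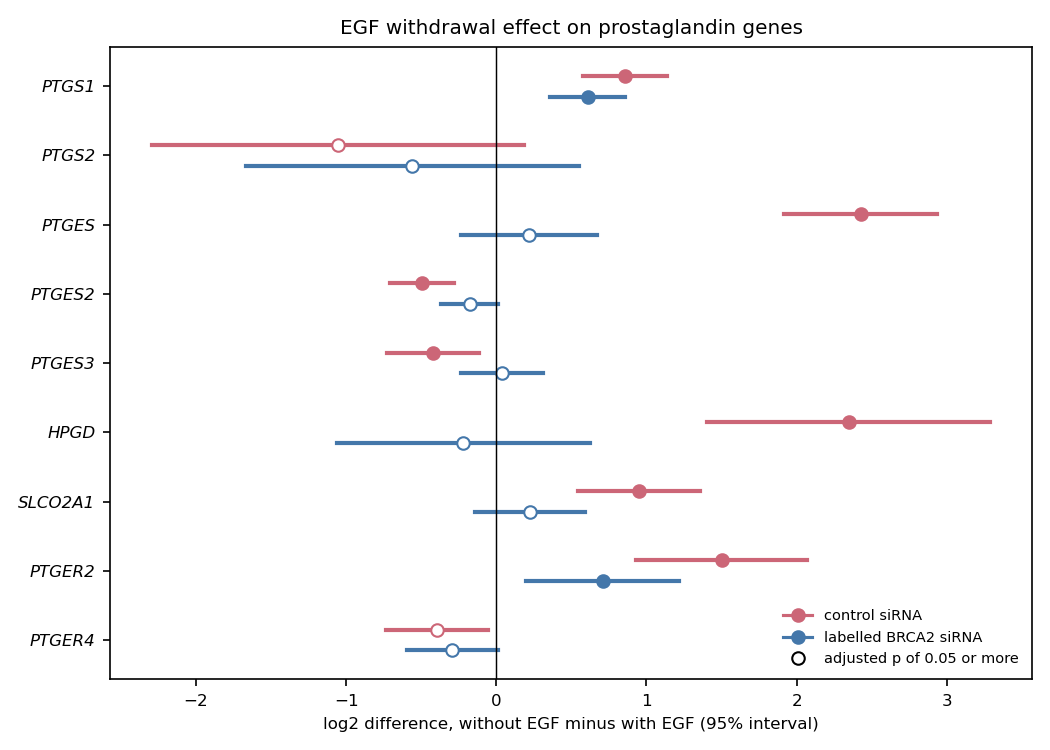
Withdrawal effect (log2 difference, without EGF minus with EGF) on each gene under control siRNA and in the labelled libraries; lines are 95% intervals and open symbols did not pass the test. HPGD lies at 2.35 and -0.22, PTGES at 2.43 and 0.22.

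EGF withdrawal in the labelled libraries asks the same with the other siRNA. PTGS1 and PTGER2 passed, 2 of 9 genes, where 27.1% of genes tested passed. Both rose, where 13.4% rose; 0 fell in limma, where 13.8% fell. An unadjusted p under 0.05 was found for 2 of 9, against 41.2%. The groups did not overlap for PTGS1, PTGES2, PTGER2 and PTGER4, 4 of 9, against 46.6%.

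With EGF the siRNAs gave no call among these genes: 0 of 9 passed in limma, where 0.00557% of genes passed, and 0 of 9 had an unadjusted p under 0.05, against 2.83%. The groups overlapped for all 9, while 5.88% of genes did not overlap. The differences ran from -0.33 for SLCO2A1 (95% interval -0.69 to 0.03) to 0.32 for HPGD (-0.52 to 1.17). For PTGS2 the interval was -1.27 to 0.95.

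Without EGF, HPGD, PTGES and SLCO2A1 were lower in the labelled libraries, and PTGES2 and PTGES3 higher. This comparison shares its control libraries with EGF withdrawal under control siRNA. Of the 9 genes 5 passed, where 20.5% passed: 3 lower, against 9.36%, and 2 higher, against 11.2%. An unadjusted p under 0.05 was found for 6 of 9, against 35.3%, and groups did not overlap for 6 of 9, against 62.3%. PTGES and SLCO2A1 passed the filter only through these control libraries.

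HPGD differed by -2.24 ± 0.43 (4.74-fold lower, adjusted p = 0.00588). That call ended without control replicate A without EGF (-2.17, 0.0696) and with only B and C (-1.76, 0.381). PTGES differed by -1.89 ± 0.23 (0.00147) and SLCO2A1 by -1.06 ± 0.18 (0.00401). With no filter and control replicate A or C left out, PTGES passed (0.00518 and 0.0196) and so did SLCO2A1 (0.0143 and 0.0327).

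PTGES2 differed by 0.42 ± 0.10 (adjusted p = 0.0123) and PTGES3 by 0.49 ± 0.14 (0.0295). Both calls ended without control replicate A without EGF (0.115 and 0.192), control replicate C without EGF (0.0682 and 0.101) or labelled replicate A without EGF (0.0501 and 0.111), and with only B and C (0.482 and 0.586). That of PTGES3 also ended without labelled replicate B without EGF (0.0721) and under quantile normalization (0.12). PTGER2 did not pass (-0.68, 0.0856) but did when these groups were fitted alone (0.0231). PTGS1 (-0.12, 0.529), PTGS2 (0.34, 0.712) and PTGER4 (0.21, 0.376) did not pass.

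Some markers of other cells moved with the same libraries. The log2 of the summed fibroblast markers was 10.73 to 11.10 in control libraries with EGF and 13.05 to 13.17 without, and 10.88 to 11.05 and 11.85 to 12.57 in the labelled libraries. Of 8 such markers 7 were above the filter; 6 rose under control siRNA, where 24.7% of all genes tested rose, and 3 in the labelled libraries, where 13.4% rose. COL1A1 lay between 7.63 and 7.96 in control libraries with EGF and between 10.85 and 10.88 without. COL3A1 was the highest of these markers, between 12.45 and 12.65 in control libraries without EGF. COL1A2 stayed under the filter, between 1.31 and 1.84 over all groups. THY1 did not pass under control siRNA (-0.09, limma adjusted p = 0.735). The summed endothelial markers, 3 of 7 above the filter, were 7.72 to 8.69 and 10.20 to 10.44 in control libraries with and without EGF and 7.79 to 8.54 and 8.22 to 8.82 in the labelled ones. KDR made up most of that sum, and CDH5 stayed below 0. Under control siRNA KDR rose by 2.51 (limma adjusted p = 0.000223), while TEK changed by -1.13 (0.00369). ERG, which passed the filter only through libraries without EGF, rose by 0.91 (0.0117). In the labelled libraries 0 of these 3 passed. The summed leukocyte markers, 2 of 7 above the filter, were 5.13 to 5.35 and 5.90 to 6.35 in control libraries and 4.92 to 5.34 and 5.54 to 5.68 in the labelled ones. Summed basal markers, 8 of 8 above the filter, were 18.69 to 18.89 and 19.60 to 19.76 in control libraries and 18.76 to 18.92 and 19.26 to 19.45 in the labelled ones. Summed luminal markers were 12.37 to 12.63 and 12.20 to 12.23 in control libraries and 12.50 to 12.54 and 12.03 to 12.17 in the labelled ones. That sum holds opposite changes. Under control siRNA KRT8 rose by 0.45 (limma adjusted p = 0.00293) and GATA3 by 0.73 (0.0318), while KRT18 changed by -0.93 (9.01e-05). In the labelled libraries 0 of the 5 tested rose and 2 fell. The part of all these markers in the differences of the 9 genes was not tested.

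Other genes around the pathway were counted in 9 lists. Over all genes tested 24.7% rose and 26.1% fell under control siRNA, and 13.4% and 13.8% in the labelled libraries; a list's count near these shares is no result about the list. Phospholipases release arachidonic acid, and acyl-CoA synthetases return it to stores. Of 15 tested genes of its release and re-esterification 3 rose and 3 fell under control siRNA, and 1 rose and 3 fell in the labelled libraries, where 50.8% and 27.1% of all genes tested passed, so the list is not set apart by its count. The secreted phospholipase gene PLA2G2A rose by 1.99 (adjusted p = 8.17e-05) and 1.15 (0.00425). It lay between 2.23 and 2.41 with EGF and passed the filter only through libraries without EGF (4.32 to 4.39 in control libraries). Its rise, also in the list's count, therefore supports nothing about the list. The lipase gene MGLL changed by -1.89 and -1.19 and the synthetase gene ACSL4 by -0.81 and -0.34, each passing under either siRNA. The list median was 0.18 and 0.04, against -0.0036 and 0.0032 over all genes tested.

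Of 5 tested genes of other prostanoid synthases 1 rose and 1 fell under control siRNA (median -0.23). AKR1C3, whose enzyme makes prostaglandin F, rose by 2.02 (adjusted p = 0.000297) and in the labelled libraries by 0.90 (0.0319). Of 6 further reductases and carriers 1 rose and 2 fell (median -0.15): SLCO3A1 rose by 1.501 (0.000458), and ABCC4, an exporter of prostaglandins, changed by -0.41 (0.00984). In the labelled libraries SLCO4A1 alone passed (-0.48, 0.0221). Of 7 other prostanoid receptors 2 were tested. The prostaglandin F receptor gene PTGFR rose by 1.55 under control siRNA (8.88e-05) and differed by 0.18 in the labelled libraries (0.446). The prostacyclin receptor gene PTGIR changed by -0.55 (0.048) and differed by -0.38 (0.151).

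Of 9 tested lipoxygenase, leukotriene and epoxygenase genes 3 rose and 2 fell under control siRNA and 2 rose and 0 fell in the labelled libraries (medians 0.32 and -0.05). The leukotriene B receptor gene LTB4R rose by 1.08 (adjusted p = 0.000171) and 0.97 (0.0011). Of 10 genes of HSP90 and its co-chaperones, partners of PTGES3, 2 rose and 7 fell under control siRNA and 0 rose and 3 fell in the labelled libraries (medians -0.63 and -0.28). STIP1, a co-chaperone gene, changed by -0.94 (0.000157) and -0.33 (0.0498), while FKBP5 rose by 0.62 under control siRNA (0.000136).

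Downstream of the receptors, 18 Gs and cyclic AMP signalling genes were tested. Of these 5 rose and 4 fell under control siRNA, where 50.8% of all genes passed, and 4 rose and 2 fell in the labelled libraries, where 27.1% passed, so this list too is not set apart (medians -0.08 and 0.13). RAPGEF4, an exchange factor gene regulated through cyclic AMP, rose by 1.44 (adjusted p = 0.000885) and 1.09 (0.00672), while its relative RAPGEF3 changed by -0.90 (0.00339) and -0.61 (0.0296). Of 7 cyclic AMP-responsive targets 4 rose and 1 fell under control siRNA and 2 rose and 1 fell in the labelled libraries (medians 0.42 and 0.10). The coactivator gene PPARGC1A rose by 3.30 (1.96e-05) and 1.60 (0.00264), and the transcription factor gene FOSB by 2.67 (2.57e-05) and 0.80 (0.027). The gene that fell was CREM, which changed by -0.71 (0.00103) and -0.42 (0.0219). Of 8 AU-rich element binding proteins, a class that acts on transcripts such as PTGS2, 2 rose and 1 fell under control siRNA and 1 rose and 0 fell in the labelled libraries (medians 0.03 and 0.20). ZFP36 rose by 0.82 under control siRNA (0.0166).

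**Figure D4:**
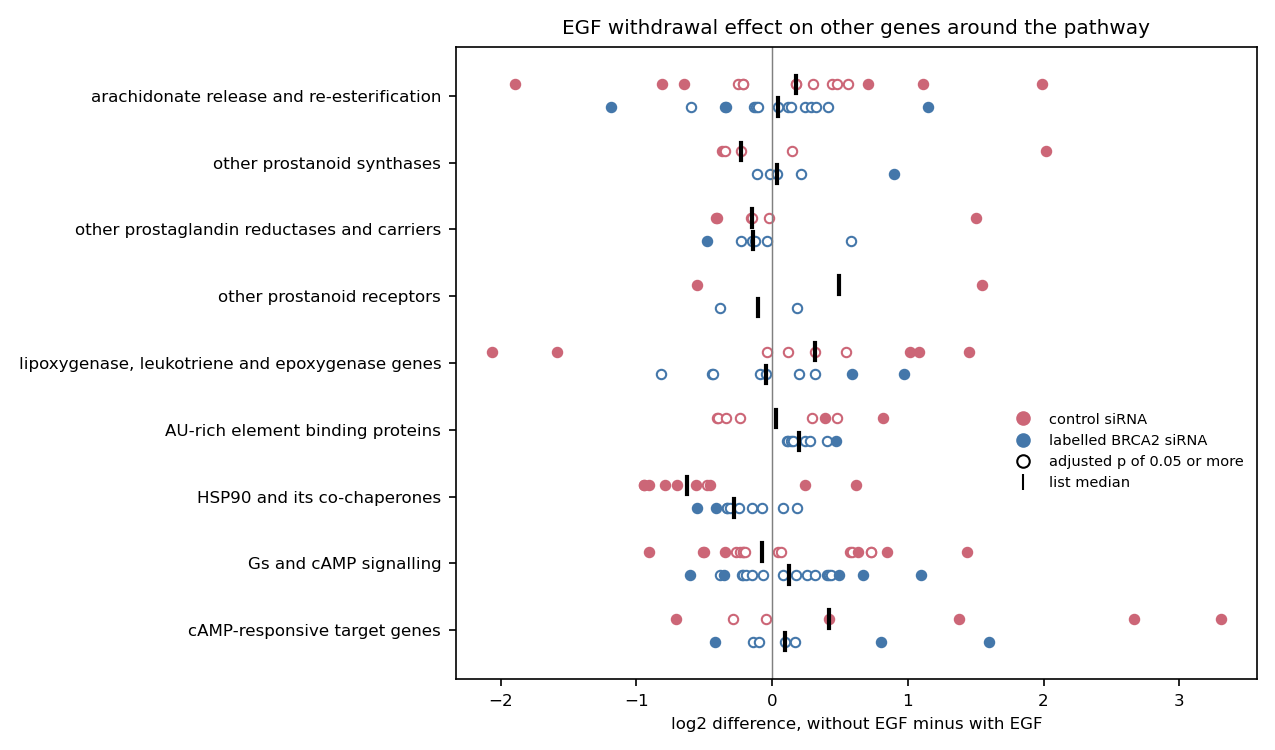
Withdrawal effect (log2 difference, without EGF minus with EGF) on each tested gene of the 9 lists, under control siRNA and in the labelled libraries; open symbols did not pass the test and short bars are list medians. The HSP90 list has medians of -0.63 and -0.28.

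PTGS2 minus HPGD, an inducible synthesis gene against the degradation gene, was 8.96, 9.18 and 6.33 in control libraries A, B and C with EGF and 4.57 and 4.95 in A and C without, on the log2 scale. Among labelled libraries it was 7.46, 9.12 and 6.46 with EGF and 7.76, 7.29 and 6.97 without. The control libraries without EGF stood lowest of the 11, and the labelled groups overlapped.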

How the data were processed

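Ribosome-depleted RNA of 11 libraries in 4 groups was sequenced. The authors deposited log2 values, which were used as they stand. The submitters' processing notes name hg19, TopHat2 2.0.11, DESeq2 and limma without roles; for the counter, annotation and transform the sources used here say nothing. In every gene the mean of the 4 A libraries equalled that of the 7 B and C libraries (largest difference 7.2e-09). The values were therefore centred at a step the sources do not name. Replicate B has no control library without EGF, so this can shift A against B and C where groups differ. The main fit has no term for A and does not count the centring in its 7 residual degrees of freedom. Its p-values may be too small for that reason. A term for A was fitted as an alternative. Genes with log2 of at least 3.32 (linear 10) in 2 libraries were tested with limma 3.58.1 in R 4.3.3: 4 group means, mean-variance trend, Benjamini-Hochberg adjustment over 17945 genes. The script was tested on simulated data. A gene name table gave symbols for 37585 of 40460 genes, and GENCODE 29 exon lengths. Members and lists were chosen with earlier results of these data known. All 9 members are named, from each list genes among the 4 with the smallest p per withdrawal comparison, and the 3 genes nearest to PTGS2, HPGD and SLCO2A1. PACERR and the pseudogenes were looked up after values were seen. Alternatives changed the filter, scaling, model terms and libraries.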

Additional observations from a re-analysis of the deposited data

Results flagged for a closer look

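Of all genes tested 595 of 17945 genes passed limma's interaction test, in which the EGF withdrawal effect is compared between the labelled BRCA2 siRNA libraries and the control libraries. Among the members, the 9 lists and the marker lists 8 did, where 3.32% of all genes tested passed. They were 2 of 9 members, 1 of 2 other prostanoid receptors and 2 of 7 cyclic AMP-responsive targets. Among markers they were 1 of 5 luminal, 1 of 7 fibroblast and 1 of 3 endothelial genes. In each remaining list 0 passed. Members and lists were chosen with earlier results of these data known, so these counts support nothing about them. The number over the whole table depended on the library left out. It was 0 without control replicate A with EGF or labelled replicate C with EGF, and 1606 without control replicate C with EGF. The difference was -2.57 for HPGD (adjusted p = 0.0395), a call that was lost in 8 of the 11 fits that left out 1 library and without the mean-variance trend (0.0566). It was -2.21 for PTGES (0.0167), which passed the filter on low values only through the control libraries without EGF and lost the call without control replicate A with EGF (0.0595), labelled replicate B without EGF (0.0534) or labelled replicate C with EGF (0.055). Among list genes it was -1.36 for PTGFR (0.0286), -1.87 for FOSB (0.0286) and -1.71 for PPARGC1A (0.0468). Among markers it was -0.76 for the luminal KRT8 (0.0248), -1.07 for the fibroblast DCN (0.0435) and -2.07 for the endothelial KDR (0.0445).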

How the results depend on the processing

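Of the 9 members 7 passed in EGF withdrawal under control siRNA, 2 in the labelled libraries, 5 between siRNAs without EGF and 2 in the interaction. With the stricter filter, which leaves PTGES, SLCO2A1 and PTGER2 untested, the counts were 4, 1, 3 and 1. With only replicates B and C, which leaves PTGES and SLCO2A1 untested, they were 2, 0, 0 and 0. In the labelled libraries 1 passed with no filter, quantile normalization, a term for replicate A or only replicates A and C, and in the interaction 1 passed without the mean-variance trend; the cause was not tested. With 1 library left out the counts ranged from 4 to 8, 1 to 2, 0 to 5 and 0 to 3. Between siRNAs with EGF 0 passed in each of these limma fits. Over all genes, with only replicates B and C 1975, 46, 0 and 0 genes passed in place of 9121, 4871, 3687 and 595. Between siRNAs without EGF 6780 genes passed with these groups fitted alone, and 2113 and 2402 with no filter and control replicate A or C without EGF left out; in the interaction 375 passed without the trend and 0 with no filter and without that replicate C. Between siRNAs with EGF 1 gene of the whole table passed, and 0 with the stricter filter, the replicate block or a term for replicate A. No called difference of a member changed sign. Whether the replicate letters pair the libraries could not be settled: 2 of 15 same-letter correlations of deviations exceeded 0.1, those of B (0.70) and C (0.70) between the groups with EGF. The others ran from -0.37 to 0.04, and those of A come from values already centred over A. With the replicate block the members' counts were 8, 2, 5 and 2, and 930 genes in all passed the interaction. The fits of replicates A and C, and of no filter with a control library left out, were added after the data were seen. A lone library left in a group is assumed to vary like the other groups. Depth is unknown, so the counting error of low genes cannot be given.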
